A study of Mus musculus with 8 samples.

Results

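The genes described here are those with a mean level of 100 CPM or more over the 4 libraries of wild-type retinal pigment epithelium (RPE) isolated at P29. They were chosen by that measured mean, so their levels are a description and are not tested. The rule took 1639 of the 31053 genes in the files, and 16747 genes had at least 1 count in a wild-type library. The 1639 genes held 74.4% ± 0.525 (SD, n = 4) of the counts on genes. CPM is the number of reads counted on a gene, scaled to a library total of 1000000 reads on genes.

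The study compared RPE of *Bbs8*-/- mice with RPE of wild-type mice, and *Bbs8* encodes a subunit of a protein complex that carries cargo to and from the cilium. The series holds 8 libraries, 4 of each genotype, and the 4 knockout libraries were not used here. The 4 wild-type libraries, titled Control P29 #1 to #4 and called Control #1 to #4 here, came from untreated mice of strain label C57/Bl6, aged P29, whose sex was not determined. Corneas, lenses and retinas were removed, the eyecups were digested with trypsin, and the RPE was peeled from the choroid and frozen. Total RNA (30 ng) was made into 3′ libraries, in which a primer on the poly-A tail yields reads from the end of each transcript. A read count therefore does not grow with transcript length, and CPM was compared between genes without division by length.

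The RPE is a single layer of pigmented cells between the photoreceptors and the choroid. Its cells convert all-trans retinol back to 11-cis retinal for the photoreceptors, take up and digest the tips of photoreceptor outer segments every day, and absorb stray light with melanin. They also carry water, ions, glucose and lactate between retina and blood and secrete proteins on both faces. The outer segments lie between the microvilli of the RPE, so isolated RPE can carry photoreceptor material with it.

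Between 2495094 and 3093428 reads of a wild-type library were counted on genes (median 2763951). The floor, set at 3 counts, lay at 0.970 to 1.20 CPM, and counting error alone gives a gene at 100 CPM a coefficient of variation (CV) of 6.0%. Matches to more than 1 place made up 33.6% to 34.5% of the entries of a file, which need not be a share of the reads. Reads with such matches were not counted on any gene, so genes with near-identical copies are undercounted. The floors cover counting error alone, as the libraries were counted without molecular identifiers. All 6 pairs of libraries differed by more than sampling noise, with a chi-square per degree of freedom of 2.83 to 7.04, so no pair was treated as 1 library deposited again. Whether the libraries differ more than repeat preparations of 1 RNA would was not tested.

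Control #1 stood apart from the other libraries before any gene group was considered. Of the 1639 genes, 89 lay at least 0.5 below the mean of the other 3 libraries on the log2 scale in Control #1, compared with 0, 6 and 2 genes in Control #2, #3 and #4. In the other direction the counts were 11, 0, 16 and 0. The mean that Control #3 was set against includes Control #1, so a gene low in Control #1 can count as high in Control #3. *Gapdh*, 1 of the 16, had 64.0 CPM in Control #1 and 250, 286 and 224 CPM in Control #2 to #4. In every library transcripts of both *Xist*, made from the inactive X chromosome (67.9, 65.4, 60.1 and 39.8 CPM), and Y-linked *Ddx3y* (103, 93.2, 84.2 and 70.9 CPM) were counted, although the study's methods treat each animal as a replicate. None of the 5 sex-linked genes listed reached a mean of 100 CPM.

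The label RPE was checked against marker genes. Of 51 genes listed for RPE, 37 were among the 1639 and none was at or under the floor in all 4 libraries. They held 6.34%, 6.78%, 6.92% and 6.70% of the counts in Control #1 to #4. The 53 genes listed for rods and cones held more, 8.51%, 8.21%, 8.30% and 8.46%. The ratio of photoreceptor to RPE counts was 1.34, 1.21, 1.20 and 1.26, and it was highest in Control #1. *Cst3*, an abundant gene of the RPE list, had 3692 CPM in Control #1 and 7025, 7328 and 6542 CPM in the others. Its part in the ratio was not tested. The shares are sums over the listed genes and depend on which genes are listed, as *Ptgds*, for one, is in neither list. The other 14 RPE genes lay under 100 CPM, *Best1* at 1.03 and *Pax6* at 9.89 CPM among them. In RNA from whole samples, more photoreceptor cells or fragments and more RNA in each of them cannot be told apart. Lens genes held 0.387% ± 0.00898 of the counts, erythroid genes 0.530% ± 0.0166, inner retina and Müller glia genes 0.142% ± 0.00861, and genes of vessels, connective tissue, muscle and immune cells 0.199% ± 0.0125 (all SD, n = 4). Genes of the ocular surface and of myelin together held 0.00692% ± 0.00096, and 7 of these 14 genes were at or under the floor in all libraries.

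**Figure D1:**
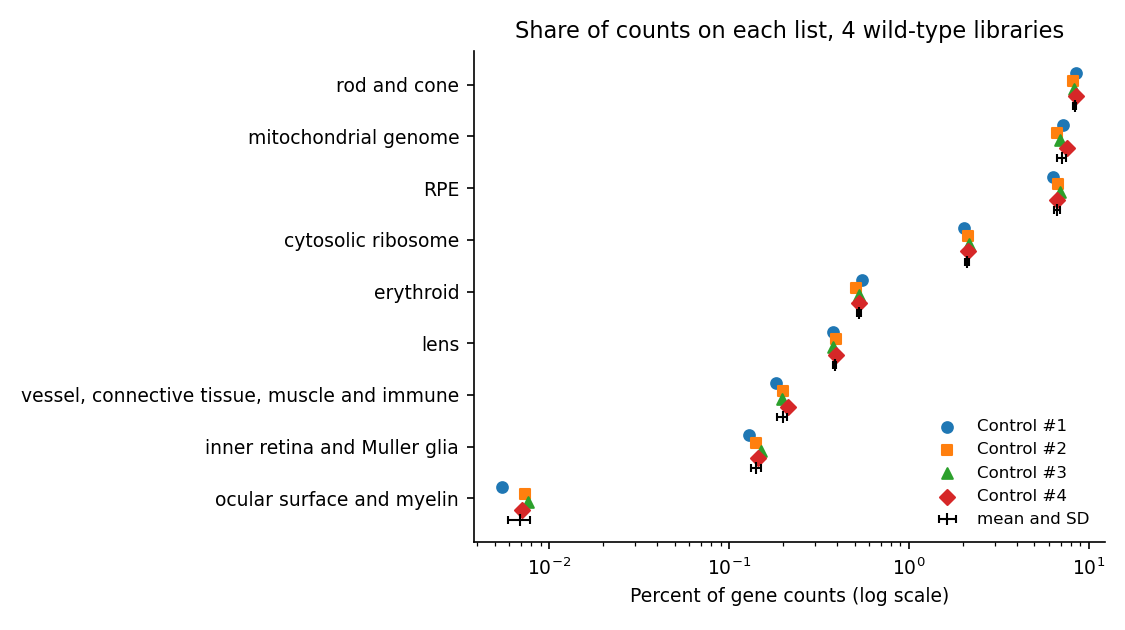
Percent of the gene counts of a library (x axis, log scale) on each list of genes (y axis); the 4 symbols are the 4 wild-type libraries and the black bar is their mean with the SD. The rod and cone list lies near 8.37%, the mitochondrial genome near 7.09% and the RPE list near 6.68%, while lens and erythroid genes stay under 1%.

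The upstream sequences of some of the genes that mark RPE and rods are shown because a short motif occurs in part of both groups. *Rgr*, *Dct* and *Sag* were chosen with a match and *Nrl* without one. Homeodomain proteins of the OTX family, which include OTX2 of the RPE and CRX of photoreceptors, are known to bind DNA with the core TAATCC. The 250 bases before the RefSeq start of each gene were taken from RefSeq (GRCm38.p6), written 5′ to 3′ on the strand of the gene, with TAATCC or its reverse complement GGATTA in capitals. *Rgr* (chr14:37049015-37049264, minus strand) and *Dct* (chr14:118052247-118052496, minus strand) are RPE genes, and *Sag* (chr1:87803430-87803679, plus strand) and *Nrl* (chr14:55524253-55524502, minus strand) are rod genes.
Rgr: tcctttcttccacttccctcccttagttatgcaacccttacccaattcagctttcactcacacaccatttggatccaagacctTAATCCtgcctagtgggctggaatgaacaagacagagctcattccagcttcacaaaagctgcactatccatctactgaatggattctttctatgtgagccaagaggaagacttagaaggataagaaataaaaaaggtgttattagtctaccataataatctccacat
Dct: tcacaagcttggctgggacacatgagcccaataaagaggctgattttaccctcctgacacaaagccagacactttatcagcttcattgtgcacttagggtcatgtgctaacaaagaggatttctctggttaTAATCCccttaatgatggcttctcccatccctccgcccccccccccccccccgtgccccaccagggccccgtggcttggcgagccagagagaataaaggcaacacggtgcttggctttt
Sag: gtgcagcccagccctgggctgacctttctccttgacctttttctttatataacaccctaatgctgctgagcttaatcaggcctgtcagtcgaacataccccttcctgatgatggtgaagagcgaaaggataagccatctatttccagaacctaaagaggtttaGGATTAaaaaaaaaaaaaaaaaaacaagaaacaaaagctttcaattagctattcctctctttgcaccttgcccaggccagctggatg
Nrl: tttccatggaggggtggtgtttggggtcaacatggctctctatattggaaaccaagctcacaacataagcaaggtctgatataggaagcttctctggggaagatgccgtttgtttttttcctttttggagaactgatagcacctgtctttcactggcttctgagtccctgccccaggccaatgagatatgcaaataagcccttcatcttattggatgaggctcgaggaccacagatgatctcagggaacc
*Rgr*, *Dct* and *Sag* hold 1 match each, and *Nrl* holds none in this window. The window of *Nrl* lies inside the span of the gene in GENCODE (chr14:55518978-55524981), which begins further upstream. Promoters were found for 30 of the 37 RPE genes and 27 of the 37 rod genes, and TAATCC on either strand stood in 6 (20%) and 13 (48.1%) of them. Some genes, such as *Otx2* and *Mitf*, have several listed promoters. A gene was counted if any of its promoters held the letters, so genes with more promoters had more chances of a match. The RPE genes with a match were *Car14*, *Dct*, *Mitf*, *Otx2*, *Rgr* and *Rpe65*. The 13 rod genes included *Sag*, *Rbp3*, *Crx*, *Abca4* and *Cngb1*. Of all 27025 genes with a listed promoter, 7.21% held the letters, and of the 1306 found among the 1639 genes 8.19% did. GGGCGG, the letters of a GC box (reverse complement CCGCCC), stood in 65.5% of those 1306 genes. It stood in 35.4% of all genes, 43.3% of the RPE genes and 18.5% of the rod genes. The E-box CACGTG, its own reverse complement, stood in 11.9% of the 1306, in 6.86% of all, in 3 RPE genes and in 0 rod genes. The related CATGTG on either strand, a known target of MITF in pigment genes, stood in 26.7% of the RPE genes, 25.9% of the rod genes, 9.42% of the 1306 and 13.8% of all genes. TATAAA on either strand stood in 20% of the RPE genes, 18.5% of the rod genes, 10.0% of the 1306 and 14.3% of all genes. None of the 5 motifs contains another, though neighbouring matches may share bases, and a match of letters is not a measured binding site.

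Counts were concentrated in few genes. The highest gene alone held 8.32% ± 0.626 of the counts, the first 10 held 23.4%, the first 100 held 40.4% and the first 500 held 56.6%. Of the 1639 genes, 916 lay between 100 and 200 CPM, the median was 179.6 CPM, 75 reached 1000 CPM and 9 reached 10000 CPM. The order was stable at the top, with 24 genes in the first 25 of every library and 26 in the first 25 of any library. The ranges of 16 of the 24 neighbouring pairs in that order overlapped. Both genes of a pair come from the same libraries, and the overlap of ranges does not use this. Among overlapping pairs, *mt-Nd4* lay above *Ptgds* in every library, whereas *mt-Nd2* and *Malat1* changed order between libraries. Whether neighbours differ was not tested.

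The highest gene was *Gm42418*, a noncoding gene (lincRNA, chr17:39846958-39848788 on mm10, plus strand) annotated over a copy of the ribosomal RNA unit, with 90479, 85548, 80926 and 75860.4 CPM in Control #1 to #4. How many of its reads came from ribosomal RNA was not tested. In addition, 2 other genes overlap its span on the other strand, so its level is uncertain. *mt-Nd4*, a complex I subunit encoded by mitochondrial DNA, followed with 26619 CPM, and *mt-Cytb*, *mt-Nd2* and *mt-Nd1* reached 14939, 13930 and 10597 CPM. The nuclear noncoding RNA *Malat1* stood at 13854 CPM. *Ptgds*, a secreted prostaglandin synthase and carrier of retinoids, had 24725, 22842, 22935 and 24268 CPM. *Ttr* (transthyretin), which carries thyroxine and retinol-binding protein and is secreted by RPE, had 20480, 19763, 20594 and 20347 CPM. These values put *Ttr* within 1.82% CV across the libraries.

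**Figure D2:**
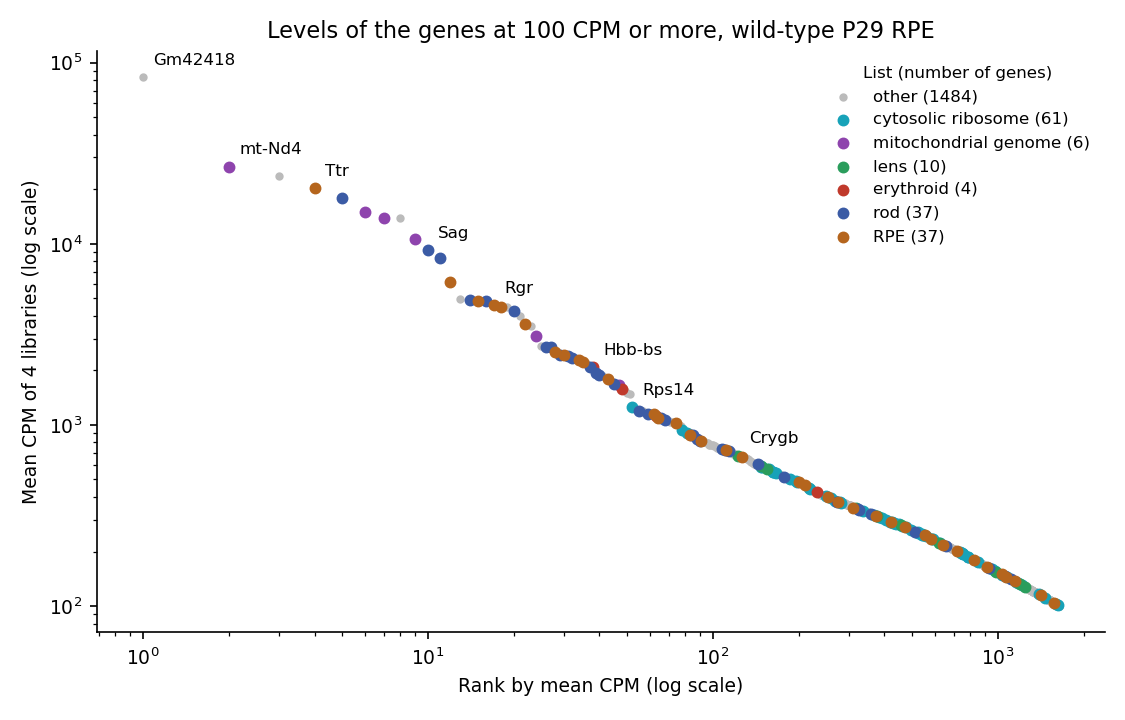
Mean CPM (y axis, log scale) of each of the 1639 genes against its rank (x axis, log scale), coloured by list. Rod genes (37) and RPE genes (37) are mixed from *Ttr* at rank 4 down to *Mpp4*, the lowest rod gene, at rank 1115, and *Gm42418* lies above all others at 83203 CPM.

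All 11 genes of the visual cycle list passed 100 CPM. *Rgr*, an opsin of the RPE that forms cis retinal in light, had 4259, 4661, 4696 and 4679 CPM. Control #1 was the lowest library for *Rgr*, and the other 3 were nearly equal. *Rpe65*, the retinoid isomerase, had 4164, 4645, 4755 and 4443 CPM. *Rdh5*, the 11-cis retinol dehydrogenase, had 2437, 2448, 2446 and 2397 CPM, and its spread did not exceed counting error. *Rlbp1*, which holds cis retinoids in the cell, averaged 1783 CPM. *Lrat*, which esterifies retinol, averaged 817 ± 53.0 CPM, and *Stra6*, the receptor for retinol-binding protein, 376 ± 19.1 CPM (SD, n = 4). *Rrh* (peropsin) was the exception within the list, with 59.8 CPM in Control #1 and 180, 205 and 155 CPM in the others. Its mean rose from 150 to 180 CPM without Control #1. *Dhrs3* (179 CPM) and *Rdh11* (115 CPM), reductases and dehydrogenases of retinoids, were the lowest beside it.

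Of 10 pigment genes, 6 passed 100 CPM. *Dct*, which acts in melanin synthesis, was by far the highest with 3703, 3530, 3436 and 3778 CPM. *Pmel*, which forms the fibrils of the melanosome, averaged 246 ± 28.4 CPM, and the melanosomal exchanger *Slc24a5* 236 ± 9.98 CPM. *Tyrp1* averaged 218 ± 23.9 CPM and *Tyr*, the rate-limiting enzyme of melanin synthesis, 138 ± 5.99 CPM. *Mitf*, the transcription factor of pigment cells, averaged 104 ± 3.24 CPM, close to the threshold. *Mlana*, *Oca2*, *Slc45a2* and *Gpr143* were below it, between 15.5 and 54.3 CPM.

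Secreted and lysosomal products of the RPE took the largest part of the RPE counts, 3.69% ± 0.143 of all gene counts, most of it on *Ttr*. *Cst3* (cystatin C), a secreted inhibitor of cysteine proteases, had 3692 CPM in Control #1 and 7025, 7328 and 6542 CPM in the others, and its mean without Control #1 was 6965 CPM. *Timp3*, an inhibitor of matrix proteases that is deposited in Bruch's membrane, had 4892, 4935, 4826 and 4741 CPM. *Enpp2* (autotaxin) had 2469, 2521, 2578 and 2602 CPM. *Ctsd*, the lysosomal protease that digests outer segment proteins, had 2602, 2260, 2147 and 1937 CPM, highest in Control #1. *Bmp4*, *Sfrp5* and *Vegfa*, secreted signalling proteins, averaged 464, 164 and 145 CPM. *Serpinf1* (34.4 CPM), *Efemp1* (4.82 CPM) and *Wfdc1* (2.83 CPM) did not reach the threshold. *Ttr*, *Cst3* and *Ctsd* are also made in other tissues.

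Of 19 membrane proteins and regulators, 12 passed 100 CPM. *Bsg*, the partner of lactate transporters, averaged 1094 ± 98.0 CPM, and *Slc16a8*, the lactate transporter of the RPE, 662 ± 49.4 CPM. *Car14*, a carbonic anhydrase, averaged 1024 ± 55.4 CPM. *Otx2*, the transcription factor that RPE and photoreceptors share, averaged 883 ± 55.0 CPM. The channels *Trpm3* and *Kcnj13* averaged 316 and 290 CPM, and *Mertk*, the receptor for uptake of outer segments, had 199, 204, 192 and 209 CPM. The keratin *Krt18* averaged 401 CPM and its partner *Krt8* 54.0 CPM. *Pax6* (9.89 CPM) and *Cdh1* (2.46 CPM) were low. *Best1*, a chloride channel often used to mark RPE, was at 0, 0.731, 1.60 and 1.79 CPM, at most slightly above the floor. The annotated spans of *Best1* and *Fth1* (715 CPM) run towards each other and are 75 bases apart, and the part of this in the count of *Best1* was not tested.

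The 41 rod genes included 37 of the 1639, and none of the 12 cone genes was among them. Most of the phototransduction cascade was in the upper ranks. *Sag* (arrestin), which ends the light response, had 9821, 8994, 9063 and 9020.2 CPM, with Control #1 highest. *Gnat1*, the alpha subunit of rod transducin, had 8632, 8049, 8191 and 8504 CPM, and the beta subunit *Gnb1*, which other cells also use, 4870, 4863, 4839 and 4945 CPM. The gamma subunit *Gngt1* had 414 CPM in Control #1 and 915, 1133 and 886 CPM in the others, whose mean was 978 CPM. *Pde6g*, *Pde6a* and *Pde6b*, the subunits of the rod phosphodiesterase, averaged 4833, 2710 and 2691 CPM. *Pdc* (phosducin) had 3873 CPM in Control #1 and 4428, 4447 and 4376 CPM in the others. *Prph2* and *Rom1*, which shape the disc rim, averaged 2437 and 2349 CPM. *Nrl*, the transcription factor of rod identity, had 2104, 2075, 2078 and 2062 CPM and averaged more than *Crx* (377 CPM) and *Nr2e3* (735 CPM). The highest cone genes were *Thrb* (85.0 CPM), *Opn1sw* (73.5 CPM) and *Gnb3* (34.9 CPM), and *Opn1mw* stood at 13.6 CPM. Levels per rod or per cone cannot be had from these counts.

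Lens genes were represented by 10 of 22. *Crygb* averaged 675 ± 37.9 CPM, *Cryba1* 592 ± 46.4 CPM and *Cryaa* 574 ± 25.4 CPM. *Cryab*, a small heat shock protein also made outside the lens, had 264, 386, 370 and 365 CPM. The lens channel protein *Mip* was at 132 CPM, while *Birc7* was at or under the floor. Of 8 erythroid genes the globins *Hbb-bs* (2080 CPM), *Hba-a1* (1583 CPM), *Hba-a2* (1116 CPM) and *Hbb-bt* (427 CPM) passed. *Hba-a1* and *Hba-a2* are near-identical, so how their unique reads divide is uncertain. *Alas2*, the haem synthesis enzyme of red cells, stood at 40.1 CPM. Lens counts per RPE count lay between 0.0552 and 0.0595. Erythroid counts per RPE count were 0.0867, 0.0751, 0.0770 and 0.0788 in Control #1 to #4. Control #1 was highest for both, as for the photoreceptor ratio, and all of these ratios share the RPE counts as denominator.

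Few genes of the lists for other tissues passed 100 CPM, and genes outside the tissue lists were not assigned to a tissue. Among Müller glia genes only *Glul* (glutamine synthetase, 1163 CPM), which is also made by other cells, passed, while *Dkk3* was at 56.4 CPM, *Slc1a3* at 8.19 CPM and *Kcnj10* at 0.929 CPM. *Prkca*, a bipolar cell marker that is also widely used, was the only inner retina gene, at 108 CPM, with *Grm6* at 1.80 CPM and *Vsx1* and *Slc32a1* at or under the floor. The fibroblast genes *Col1a2* (263, 463, 428 and 493 CPM), *Dcn* (396 CPM), *Col1a1* (261 CPM) and *Col3a1* (123 CPM) passed, while the other 5 of the list, *Ogn*, *Pi16*, *Fmod*, *Pdgfra* and *Lum*, lay between 32.9 and 7.53 CPM. Also above 100 CPM was *Ramp2* (116 CPM) of the endothelium list, whose *Pecam1* and *Cdh5* stood at 1.33 and 0.750 CPM. *Csf1r*, a receptor of macrophages, had 369, 272, 274 and 318 CPM, although the other macrophage genes *C1qa*, *Cx3cr1* and *Aif1* lay at 13.3, 11.4 and 1.46 CPM. The span of *Csf1r* overlaps 1 gene on its own strand and 1 on the other, so its count is uncertain. The keratins *Krt5*, *Krt12* and *Krt14* of the ocular surface and the myelin gene *Mog* had no count in any library, which allows up to the floor of 0.970 to 1.20 CPM.

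**Figure D3:**
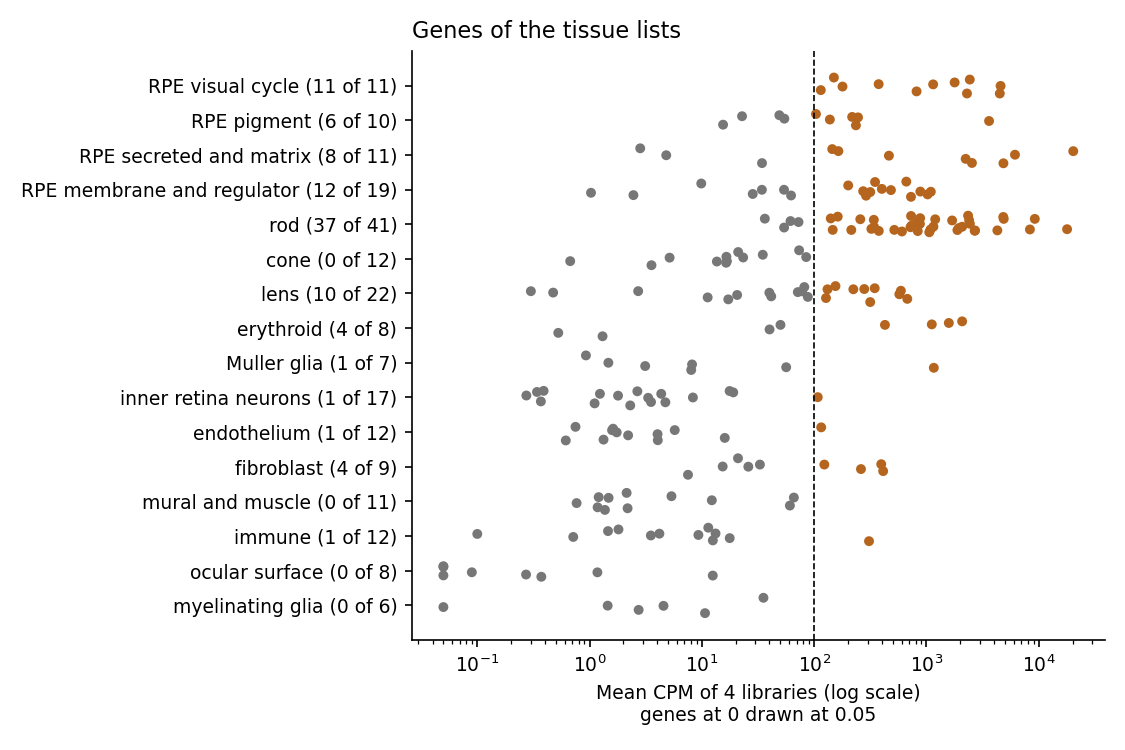
Mean CPM over the 4 libraries (x axis, log scale) of every gene of the tissue lists, 1 point a gene, with the number at 100 CPM or more in brackets and the dashed line at 100 CPM; genes at 0 are drawn at 0.05. All 11 visual cycle genes and 37 of 41 rod genes lie right of the line, and 0 of 12 cone genes do.

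Beyond the tissue lists, genes were grouped by function. The mitochondrial genome held 7.09% ± 0.406 of the counts. Only 6 of its 13 genes passed, and they were uneven: *mt-Nd4* had 29614, 23645, 24110 and 29105 CPM, *mt-Nd5* averaged 3113 CPM and *mt-Co1* 1669 CPM. *mt-Co2*, *mt-Co3* and *mt-Atp6*, which share polycistronic transcripts with them, were at 5.99, 11.9 and 9.35 CPM, and *mt-Nd4l* had no count. Multiply placed reads were not counted, so the levels of mitochondrial genes relative to one another are uncertain. Of 88 nuclear genes of oxidative phosphorylation, 60 passed and held 1.51% of the counts, led by *Cox6c* (623 CPM), *Atp5g3* (616 CPM), *Atp5b* (579 CPM) and *Atp5k* (539 CPM). *Chchd2*, a mitochondrial protein outside these lists, stood at 1190 CPM.

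Of 33 genes of glycolysis and the citric acid cycle, 18 passed. *Aldoa* (1824 CPM), *Pkm* (1055 CPM), *Hk2* (541 CPM) and *Hk1* (492 CPM) led, and *Ldha* reached 459 CPM. *Gapdh* had 64.0 CPM in Control #1 and 250, 286 and 224 CPM in the others. The spread of *Gapdh* went with Control #1, and its processed pseudogenes make its unique count uncertain. Of 85 ribosomal protein genes, 61 passed, led by *Rps14* (1251 CPM), *Rps29* (934 CPM), *Rplp1* (900 CPM) and *Rps21* (589 CPM), and the 85 genes held 2.11% ± 0.0588 of the counts. Of 73 translation genes, 23 passed, with *Eef2* at 1090 CPM.

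Of 56 genes of the lysosome and of phagocytosis, 25 passed. *Psap*, the precursor of the saposins, had 923 CPM in Control #1 and 1501, 1905 and 1632 CPM in the others, whose mean was 1679 CPM. *Cd63*, a membrane protein of late endosomes, averaged 1195 ± 79.7 CPM, and *Npc2*, which moves cholesterol out of the lysosome, 609 ± 46.1 CPM. *Atp6v1a*, of the proton pump, averaged 499 CPM. *Mfge8*, *Itgav* and *Mertk*, the bridge and receptors in outer segment uptake, were all above 100 CPM. Secreted carriers held 3.83% ± 0.112 of the counts on 14 genes, 7 of which passed. Next to *Ptgds* these were led by *Trf* (transferrin, 4954 CPM), *Clu* (4483 CPM) and *Apoe* (3983 CPM). Of 54 genes for metals and antioxidants 16 passed, led by the metallothioneins *Mt1* (3509 ± 71.8 CPM) and *Mt2* (1745 ± 429 CPM), then *Sod1* (733 CPM) and *Fth1* (715 CPM). *Mt1* varied little among the libraries, whereas *Mt2* had 1185 CPM in Control #1 and 1903, 2204 and 1689 CPM in the others, whose mean was 1932 CPM.

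Transport genes numbered 534 in the list, of which 46 passed. Among them were the taurine carrier *Slc6a6* (848 CPM in Control #1 and 1414, 1392 and 1333 CPM in the others) and the ADP/ATP carrier *Slc25a4* (983 CPM). *Slc16a1*, the lactate carrier, reached 861 CPM. The matrix list held 10 of 114, led by *Col8a1* (1866 CPM), *Timp2* (690 CPM), *Sparc* (680 CPM) and *Col8a2* (577 CPM), and collagen VIII is a known part of basement membranes in the eye. The junction list held 4 of 63, *Ctnnb1* (332 CPM), *Cldn1* (253 CPM), *Gja1* (216 CPM) and *Ctnna1* (190 CPM). The cytoskeleton list held 21 of 76, led by *Actb* (2193 CPM), *Tuba1b* (1153 CPM), *Map1b* (1034 CPM) and *Ezr* (750 CPM), the linker of actin to the membrane of microvilli.

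Chaperones (27 of 104) were led by *Hsp90aa1* (1674 CPM), *Hsp90ab1* (833 CPM), *Hspa5* (575 CPM) and *Calr* (457 CPM). Proteasome and ubiquitin genes gave 26 of 90, RNA processing genes 33 of 68, vesicle traffic genes 37 of 213 with *Arl6ip1* at 2743 CPM, lipid genes 13 of 47 with *Dbi* at 529 CPM and *Elovl4* at 416 CPM, calcium-binding genes 5 of 35, and histone and chromatin genes 10 of 93 with *Hmgn1* at 1504 CPM. Complement and MHC genes gave 2 of 22, among them *B2m* (360 CPM).

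Of 37 genes listed as rapidly inducible, 12 passed. The highest were *Sgk1* (457 CPM), *Klf9* (339 CPM), *Egr1* (279 CPM), *Fos* (241 CPM), *Jun* (207 CPM) and *Fosb* (168 CPM). *Klf3* (156 CPM), *Junb* (148 CPM), *Ccn2* (147 CPM), *Jund* (138 CPM), *Zfp36l1* (112 CPM) and *Ccn1* (106 CPM) followed. *Fos* and *Egr1* are induced in many cells within an hour of a stimulus. Whether any of the listed genes was induced here was not tested. *Fos* had 208, 253, 268 and 234 CPM and *Egr1* between 251 and 314 CPM, so these transcripts were present in every library. *Ccn2* had 48.8 CPM in Control #1 and 143, 230 and 168 CPM in the others, whose mean was 180.1 CPM. *Klf9* had 263 CPM in Control #1 and a mean of 365 CPM in the others. Of 15 clock genes 4 passed, *Tef* (287 CPM), *Dbp* (138 CPM), *Hlf* (124 CPM) and *Bhlhe41* (102 CPM). *Dbp* had 93.7 CPM in Control #1 and 163, 154 and 142 CPM in the others.

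By annotation, 1625 of the 1639 genes were protein coding and held 64.5% of the counts, and 10 were lincRNAs, which held 9.85%, most of it on *Gm42418*. Besides *Malat1*, the noncoding members of the lists were *Neat1* (124 CPM), *Meg3* (110 CPM) and *Kcnq1ot1* (100.2 CPM). Of the 1639 genes, 96 belonged to the tissue lists and 470 to the function lists. A further 234 fell into 8 lists written after these genes had been seen, among them 20 synaptic and photoreceptor genes led by *Osbp2* (2333 CPM), 40 chromatin regulators led by *Ncor1* (545 CPM) and *Nipbl* (537 CPM), 42 kinases and phosphatases, and 34 transcription factors led by *Purb* (1049 CPM). The remaining 839 genes held 24.5% of the counts, *Gm42418* included, and were led after it by *Basp1* (1203 CPM), *Chchd2* and *Crim1* (929 CPM).

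The spans of 939 of the 1639 genes (57.3%) overlap another gene of the annotation on either strand. Over the 1624 protein-coding genes with a length, the median longest transcript was 3719.5 bases, compared with 3501 bases for the 10643 other protein-coding genes at 1 CPM or more. Mean CPM and this length were weakly related across genes (Spearman's rho −0.0937, a description over genes of the same libraries).

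The spread among the 4 libraries was set against counting error by a chi-square test of each gene's 4 counts against the library totals, with Benjamini-Hochberg adjustment over the 10629 genes with a mean count of 10 or more. This test is conditional on the total count of a gene and does not use the rule. Spread beyond counting error (adjusted p under 0.05) was found for 1010 of the 1639 genes (61.6%), compared with 44.9% of all genes tested. The test detects smaller differences at higher counts, and the count of such genes went from 501 of 916 genes below 200 CPM to 69 of 75 at 1000 CPM or more. Without Control #1 it was found for 468 of the 1639 (28.6%), compared with 20.1% of all genes tested.

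The size of the spread was small for most genes. The CV had a median of 8.67%, and after removal of counting error the median was 7.39% (quartiles 4.28% and 11.4%), or 4.95% without Control #1. For 173 genes nothing was left beyond counting error. It fell with level, from a median of 8.15% at 100 to 200 CPM to 5.65% at 1000 CPM or more. It exceeded 20% for 76 genes, of which 62 were lowest in Control #1, and for 7 genes without Control #1. It exceeded 30% for 16 genes, and all 16 were lowest in Control #1.

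The 10 genes with the largest spread beyond counting error were *Tdrd7* (51.6%), *Ccn2* (50.7%), *Gapdh* (47.4%), *Cox7c* (46.6%), *Flvcr2* (42.3%), *Rrh* (42.0%), *Usmg5* (39.2%), *Tmsb4x* (39.0%), *Ndufa1* (38.2%) and *Cspg5* (37.1%). Each was lowest in Control #1. *Tdrd7*, a granule protein needed in the lens, had 35.9 CPM there and 135, 175 and 106 CPM in the others. *Cox7c*, a subunit of cytochrome c oxidase, had 93.7 CPM and 375, 397 and 325 CPM. *Tmsb4x* (thymosin beta 4), which binds actin monomers, had 85.0 CPM and 233, 261 and 226 CPM. Without Control #1 the spread was 9.64% for *Cox7c*, 6.51% for *Tmsb4x*, 11.8% for *Gapdh* and 13.1% for *Rrh*, but still 24.5% for *Tdrd7* and 24.4% for *Ccn2*. The genes highest in Control #1 differed less, with *Rere* and *2900060B14Rik* at 0.68 above the mean of the others on the log2 scale, followed by *Spag7* and *Meg3*.

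**Figure D4:**
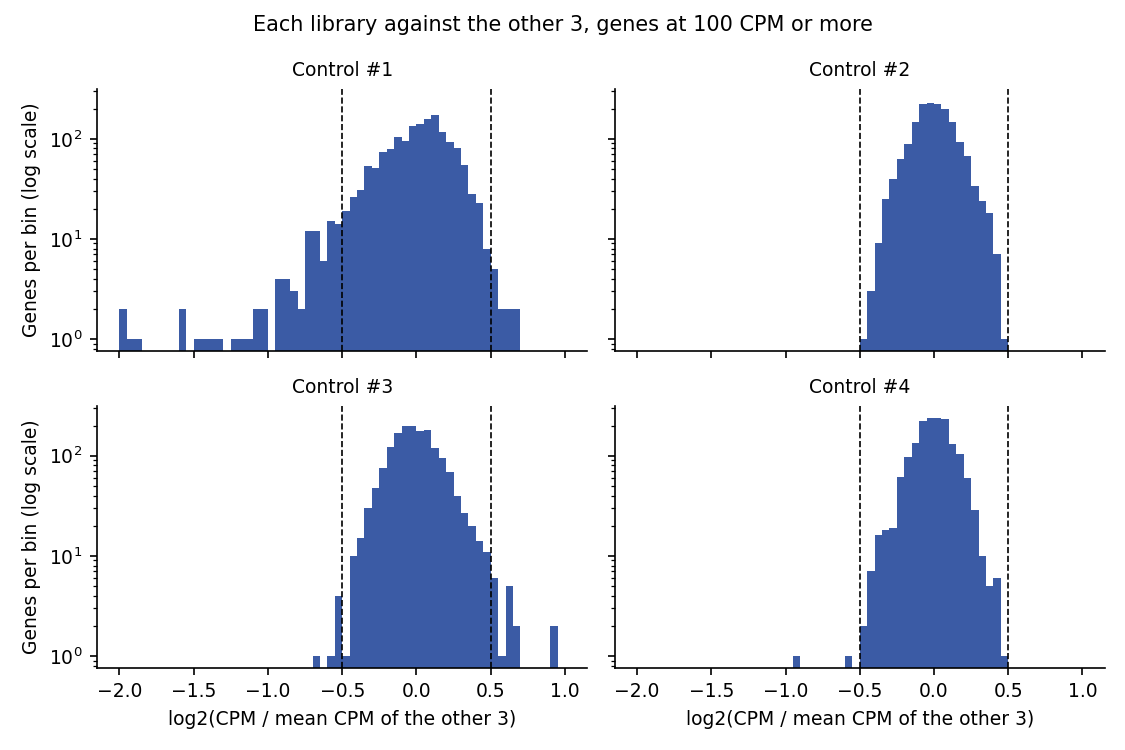
Histograms of log2 of a gene's CPM in 1 library over its mean CPM in the other 3 (x axis, bins of 0.05) for the 1639 genes, 1 panel a library, with the number of genes per bin on a log y axis and dashed lines at −0.5 and 0.5. Control #1 has a tail of 89 genes below −0.5 that reaches −1.98 (*Gapdh*), compared with 0, 6 and 2 genes in the other panels.

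The 89 genes low in Control #1 had a median longest transcript of 2829 bases, and 24.7% of them were under 1500 bases, compared with 3785.5 bases and 13.2% for the protein-coding genes within 0.5. The 9 protein-coding genes high in Control #1 had a median of 2399 bases, so the genes shifted in either direction had the shorter medians. Over the 1624 protein-coding genes with a length, the log2 ratio of Control #1 to the others and the length gave a Spearman's rho of 0.115. This is a description over genes of the same libraries. The part of length in these values was not tested. The 89 genes are 5.43% of the 1639. They included 5 of 61 ribosomal protein genes, 4 of 60 oxidative phosphorylation genes, 4 of 46 transport genes and 4 of 21 cytoskeleton genes. Also among them were 3 of 23 translation genes, 3 of 25 lysosome genes, 2 of 18 glycolysis and citric acid cycle genes and 2 of 16 metal and antioxidant genes. Of the tissue lists, visual cycle (*Rrh*), secreted RPE (*Cst3*), rod (*Gngt1*), lens (*Cryab*) and fibroblast (*Col1a2*) held 1 each. Control #1 also had the most gene counts (3093428) and the fewest genes with a count (14115). Its file had the largest share of entries that met no counted feature of a gene (18.4%, compared with 17% to 17.3% in the others).

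Among genes past the threshold of the chi-square test, the 5 smallest spreads belonged to abundant genes, for which the test detects small differences. These were *Timp3* (1.51%), *Ttr* (1.77%), the metallothionein *Mt1* (1.78%), *Enpp2* (2.02%) and *Pde6a* (2.31%). *Hspa5*, *Rdh5* and *Nrl* were as even as counting error allows. The RPE lists as a whole had 27 of 37 genes beyond counting error and the rod list 25 of 37. The share was 61.6% of all genes at 100 CPM or more and 44.9% of all genes tested. Without Control #1 the lists had 20 and 18 such genes of 37, and these shares were 28.6% and 20.1%. Whether the lists differ from other genes of equal level was not tested.

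**Figure D5:**
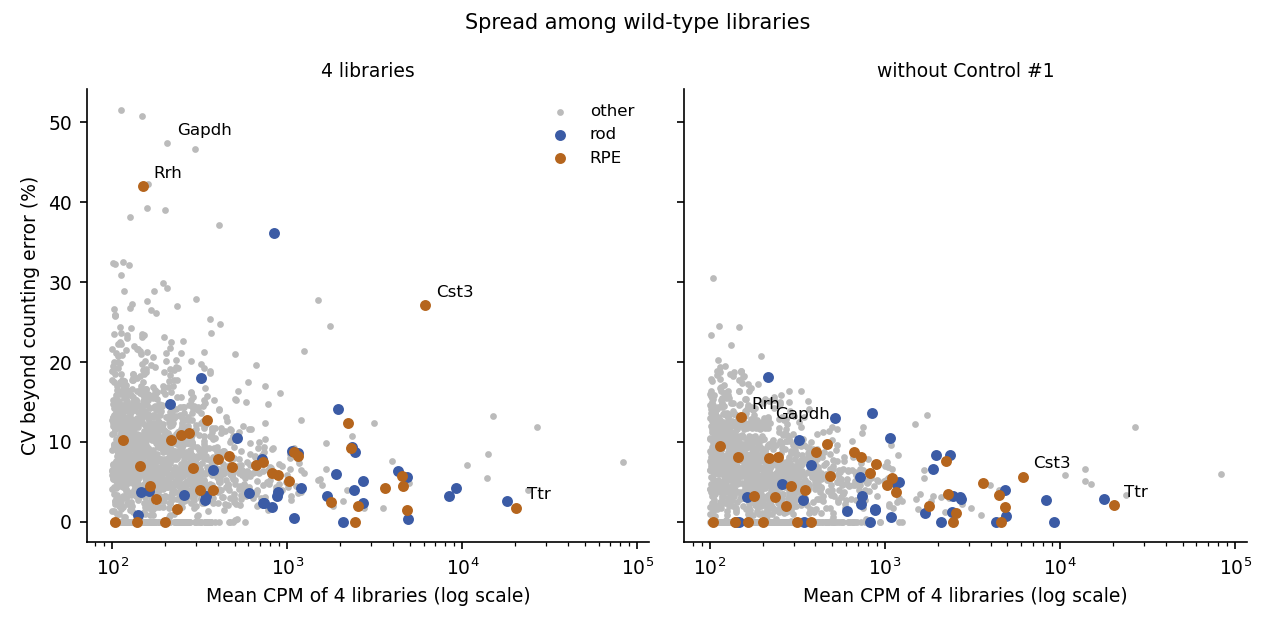
CV beyond counting error in percent (y axis) against mean CPM (x axis, log scale) for the 1639 genes, over 4 libraries (left) and without Control #1 (right), with rod and RPE genes coloured. *Gapdh*, *Rrh* and *Cst3* lie at 47.4%, 42.0% and 27.1% on the left and at 11.8%, 13.1% and 5.65% on the right.

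The threshold of 100 CPM divided genes of nearly equal level. *Rnf20*, *Tra2b* and *Smim4* lay just inside at 100.11, 100.06 and 100.06 CPM, and *Rhoj*, *Prpf6* and *Ube3b* just outside at 99.999, 99.94 and 99.90 CPM. Of the 1639 genes, 1407 reached 100 CPM in all 4 libraries, 166 missed it in 1 library, 61 in 2 and 5 in 3. A further 260 genes reached 100 CPM in at least 1 library but not in the mean.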

How the data were processed

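The authors trimmed the reads with BBDuk, placed them on mm10 with STAR, using Ensembl release 93 genes, and counted them per gene with htseq-count. Only uniquely placed reads were counted on genes. They deposited raw counts per gene, without normalization or a filter, and the strand setting of the counting is not given in the sources used here. The summary lines at the end of each file were kept out of the library totals. They held 51.0% to 52.4% of the entries of a file, which need not be a share of the reads. Samples were grouped by title alone, and the 4 knockout libraries were not used.

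CPM was computed from the totals on genes with Python 3.11.15, numpy 2.4.6, pandas 2.3.3 and scipy 1.17.1. The CV beyond counting error is the square root of the squared CV minus the inverse of the mean count, set to 0 where negative. Tests were chi-square tests of each gene's counts against library totals, with 3 degrees of freedom (2 without Control #1), which were tested on simulated data first, and the same test over all genes for each pair of libraries. Dixon's ratio was compared with its critical value. They measure the spread between these libraries. TMM factors and tagwise dispersions came from edgeR 4.0.16 in R 4.3.3 and served as alternatives. Symbols were found for 30934 identifiers and for 1638 of the 1639 genes. Coordinates and transcript lengths are those of GENCODE M21 (GRCm38) and promoters those of RefSeq (GRCm38.p6).

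The genes and the 17 tissue and 23 function lists were chosen with earlier results of these data known, and 8 lists were added after the genes had been seen. A gene counts under the first list that holds it. Genes named were the 25 highest, the 4 highest of each list, those with the largest (10) and smallest (5) spread, those next to the threshold, all genes of the RPE lists, genes of the lens, erythroid, cone, clock and rapidly inducible lists, and markers near 0. Some of these genes are not reported here. Others were named after their values were seen. Alternatives were other totals, TMM, the median, other thresholds and filters, and each library left out in turn. A total without *Gm42418* was added after seeing the data.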

Additional observations from a re-analysis of the deposited data

Results flagged for a closer look

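Library totals, list shares and the levels of the named genes were examined for a library far from the other 3, measured by the gap to the nearest library over the whole range of the 4. Of 202 values, 15 (7.43%) exceeded Dixon's 95% critical value, which chance exceeds in about 1 of 20 groups of independent values. In 14 of the 15 the library was Control #1. Over all 1639 genes 104 (6.35%) exceeded it, 68 of them in Control #1. Lower in Control #1 were *Rgr* (ratio 0.918), *Pdc* (0.877), *Slc6a6* (0.857), *Rps29* (0.852), *Atp5g3* (0.885), *Sgk1* (0.885), *Dcn* (0.850), *Stra6* (0.850) and *Cdh3* (0.832). Higher in Control #1 were *Sag* (0.916), *mt-Nd5* (0.856), *Srrm2* (0.867), *Rps14* (0.851) and *Crygs* (0.847). In Control #3 the lens channel *Mip* (0.908) stood apart. *Slc6a6*, the taurine carrier, had 848 CPM in Control #1 and 1333 to 1414 CPM in the others and *Atp5g3* had 523 and 639 to 654 CPM. *Cdh3*, a cadherin of RPE, had 21.3 CPM in Control #1 and up to 40.5 CPM in the others. *Mip* had 147 CPM in Control #3 and 126 to 128 CPM in the others.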

How the results depend on the processing

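The number of genes at 100 CPM followed the definition of the total and of the threshold. It was 692 with all entries of a file, summary lines included, as the total, 3208 at 50 CPM and 723 at 200 CPM. It stayed between 1631 and 1660 with each library left out. TMM scaling kept 1638 of the 1639 genes. With totals without mitochondrial genes, or without *Gm42418*, the shares of counts were 7.20% and 7.29% for RPE, 9.01% and 9.13% for rods and cones, 0.417% and 0.423% for lens, 0.570% and 0.578% for erythroid genes, 0.153% and 0.155% for inner retina and Müller glia, 0.214% and 0.217% for vessel, connective tissue, muscle and immune genes, and 2.27% and 2.30% for the ribosome, since the totals were smaller. Counted as a share of the 1639 genes in place of counts, RPE and rods and cones each had 2.26%, lens 0.610%, erythroid genes 0.244%, inner retina and Müller glia 0.122%, vessel, connective tissue, muscle and immune genes 0.366%, ocular surface and myelin 0%, the mitochondrial genome 0.366% and the ribosome 3.72%. Genes with spread beyond counting error numbered 468 without Control #1 and up to 899 without another library. The median spread beyond counting error was 11.3% as edgeR's tagwise biological CV and 4.95% to 7.63% with each library left out. The other 60 values stayed within 1.5 times the value reported, or within 1 SD for shares. No paired analysis was possible because no result compares groups. Depth limits genes near 100 CPM to a counting CV of 6.0%, and genes with near-identical copies are limited by unique counting.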

Other observations

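Without Control #1, 7 genes kept a spread beyond counting error above 20%. *Stard10*, a lipid transfer protein, had 121, 118, 113 and 62.7 CPM in Control #1 to #4 and stood low in Control #4 only. *Tmem106b*, a lysosomal membrane protein, had 137, 155, 139 and 97.1 CPM, again lowest in Control #4. *Tdrd7* and *Ccn2* were highest in Control #3, at 175 and 230 CPM.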
